A study of Mus musculus with 4 samples.

Results

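The circadian clock and PAR bZIP transcription factors were followed in Paneth cells, which sit at the bottom of the crypts of the small intestine and secrete antimicrobial granules. The 10 genes were taken by name: the clock activator Arntl, the period genes Per1, Per2 and Per3, the nuclear receptors Nr1d1 and Nr1d2 (REV-ERB alpha and beta), the PAR bZIP activators Dbp, Tef and Hlf, and the bZIP repressor Nfil3. Every probe set that the platform annotation gives to a member was used, which came to 23 of the 45101 probe sets on the array and to 10 of the 18193 genes named there. The cells were cut by laser capture from frozen small intestine of male NMRI mice aged 8 weeks, either germ-free throughout or germ-free and then conventionalized for 10 days with microbes taken from the gut of a mouse raised conventionally. NMRI is an outbred stock, and neither group carries an engineered allele in the labels. RNA from 3 mice was pooled in each group, and 2 aliquots of 10 ng per pool were amplified and put on 1 Affymetrix Mouse430_2 array each. Within a group the arrays thus repeat the amplification of 1 pool, so that every error and p-value below covers amplification and array error and leaves out the spread between mice. The labels used here give neither the time of day of sacrifice nor the light cycle, and each pool stands for 1 sampling.

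In the mammalian clock, ARNTL pairs with CLOCK or NPAS2 on E-boxes and switches on the Per, Cry and Nr1d genes, whose products repress it in turn. The REV-ERB receptors repress Arntl, Npas2 and Nfil3 through a shared response element. DBP, TEF and HLF activate genes through D-boxes, which NFIL3 represses, so that in most peripheral tissues Dbp and the genes that peak with it are high when Arntl and Nfil3 are low. In intestinal epithelium, gut microbes are known to act on this circuit, and NFIL3 is known there for its part in lipid uptake by enterocytes. The question put to the data was whether the members lay in the opposed pattern that a difference in clock phase between the groups could give.

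The promoters of the members were searched for the short elements named above, and the matches found are printed. A match of letters does not show that a protein binds there, which was not tested. RefSeq windows (GRCm38.p6) of 300 bases, from 250 before to 50 after a gene's start, were at hand for 9 members and gave 12 windows; Per2 had none in the table. Each line runs 5′ to 3′ on the gene's strand with the matched letters in capitals.
Tef, first start, E-box: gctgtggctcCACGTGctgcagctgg
Tef, second start, E-box: cctggcccagCACGTGtctacatcgt
Per1, first start, E-box: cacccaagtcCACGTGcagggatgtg
Per3, distal D-box: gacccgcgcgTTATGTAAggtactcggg
Per3, proximal D-box: ccgcccgcggTTATGTAAcccccgccgt
Arntl, second start, REV-ERB and ROR element: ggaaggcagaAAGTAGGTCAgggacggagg
The Tef stretches lie at chr15:81802536-81802561 and chr15:81811266-81811291 on the plus strand, 127 and 138 bases before their starts as counted to the first matched letter. The Per1 stretch lies at chr11:69098773-69098798 on the plus strand, 166 bases before the start. The Per3 stretches lie at chr4:151044853-151044880 and chr4:151044806-151044833 on the minus strand, 205 and 158 bases before the start. The Arntl stretch lies at chr7:113207528-113207557 on the plus strand, with its match 27 bases past the start and so in transcribed sequence. The E-box was searched as CACGTG, the D-box as TTATGTAA or TTACGTAA and the REV-ERB and ROR element as the capitals of the Arntl line with any base at the third letter, on both strands. CACGTG and TTACGTAA read the same on both strands, and such a match was counted once. Of all 32851 windows in the table, 7.15% held the E-box, 1.06% a D-box and 0.219% the REV-ERB and ROR element. Among the 12 member windows the E-box stood in 3, a D-box in 1 and the receptor element in 1. No match to these letters stood in the windows of Dbp, Hlf, Nr1d1, Nr1d2 and Nfil3.

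Cell type markers were read on the same arrays, though a group difference in them does not measure how pure the capture was. All 11 Paneth cell markers were measured and lay above 0, where 48.3% of all genes lay below 0. Of the 11, 2 (Reg3g and Mptx1) were called higher, beside 0.355% of all genes tested called in either direction. The dimmest, Habp2, had a mean signal of 176.2. The summed signal of the 11 was 72596 and 157080 (germ-free) against 323822 and 704863 (conventionalized). Enterocyte markers, given below, summed higher than this on both germ-free arrays and lower on both conventionalized ones. Such sums depend on the genes listed and on their brightest probe sets, so they do not rank the cell types by RNA. On the second conventionalized array Lyz1 gave 249593.9 and Defa31 245508.7 of the Paneth sum. The array of conventionalized aliquot 2 (replicate 2; aliquots and replicates carry the same numbers) stood apart, with a correlation across probe sets of 0.754 to 0.779 with the others, where the remaining pairs reached 0.855 to 0.890. Fluidics station 1 held both germ-free arrays and station 2 both conventionalized ones, which means that station and group cannot be told apart. Signals are the authors' linear intensities, scaled to a trimmed mean of 250 on each array. Differences are conventionalized minus germ-free on the log2(signal + 32) scale, on which changes of dim probe sets come out too small. A probe set was tested where its mean signal exceeded 113.9, the median over the array, and was called at a limma adjusted p under 0.05.

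At its brightest probe set, 1 member was called. Dbp, the PAR bZIP factor that is among the most strongly cycling outputs of the clock, was lower in conventionalized cells. Tef, its close relative, lay lower by a like amount without passing the test. The Tef difference shrank to -0.79 without conventionalized replicate 2, and its other probe sets, under the filter, differed by -0.04 and 0.08. Hlf, the remaining PAR bZIP factor, showed no separation. Of the 10 members, 6 were bright enough for the test, so the count was 1 of 6, where limma called 0.355% of the 12113 genes tested at their brightest probe set. The other 4 members, Per1, Per2, Nr1d1 and Nfil3, lay under the signal filter at every probe set, and their values are given without a test; with no filter the limma adjusted p was 1 for each of them. The groups did not overlap for 4 members, lower for Dbp, Tef and Nr1d2 and higher for Per3, beside 31.6% of all 18193 genes. Over all 10 members the median difference was -0.22, with 7 below 0, beside a median of 0.02 and 48.3% below 0 over all genes. Without germ-free replicate 2 that median was 0.11, with 4 of 10 below 0.

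**Figure D1:**
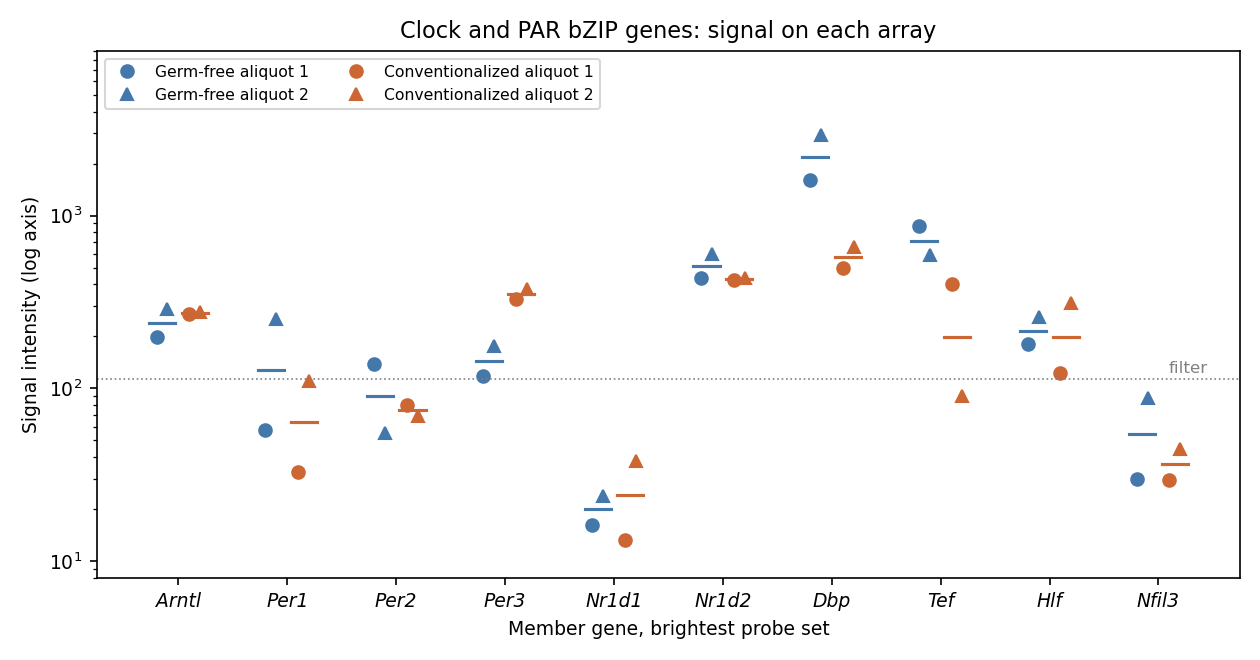
Signal intensity (log axis) of the 10 members at their brightest probe set on each of the 4 arrays. Symbols mark the aliquot, colours the group, and bars the group mean on the log2(signal + 32) scale; the dotted line is the filter at 113.9. Dbp and Tef lie lower and Per3 higher in both conventionalized arrays, while Nr1d1 stays between 13.2 and 38.1.

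Among the PAR bZIP activators, Dbp read 1610.3 and 2933 (germ-free) against 496.6 and 659.4 (conventionalized) at its brightest probe set. Each germ-free array was above each conventionalized one, by 2.44-fold at the least and 5.91-fold at the most. The duplicates lay 1.82-fold apart in the germ-free and 1.33-fold apart in the conventionalized group, less than the smallest gap between the groups. Dbp fell by 1.87 on the log2 scale (SE 0.42, n = 2 arrays per group here and below; limma adjusted p = 0.00462), a 3.65-fold difference. Of the 12113 genes tested this was the 64th largest fall. Because the prior degrees of freedom of the fit were infinite, the SE is shared by probe sets of similar brightness and does not carry Dbp's own spread. With an array left out, its group is 1 array, which the fit assumes to vary like the other group and the shared prior. The call rested on both the variance model and single arrays: the limma adjusted p was 1 without the variance trend or with the prior fixed at 4 degrees of freedom, 0.746 without germ-free replicate 2 (difference -1.44) and 0.097 without conventionalized replicate 1 (-1.67). With quantile normalization it was 0.0772, with median centring 0.561 and with the aliquot number as a replicate block 0.11. Over all alternatives it ran from 2.68e-05 to 1. The 2.68e-05 came from a block on crossed aliquot numbers, chosen after the data were seen. Among the planned settings the lowest limma adjusted p was 0.00329, with the brightest 25% of probe sets. The difference itself was below 0 in all 15 alternatives, from -2.29 to -1.44. Those that change only the filter, the variance model or the block leave it at -1.87 by construction. The median over the tested probe sets does too, since only 1 was tested. A second Dbp probe set, under the filter, read 76 and 168.6 (germ-free) against 80.2 and 21.2 (conventionalized), with overlapping groups and a difference of -0.93. The brighter probe set bears the suffix _s_at, which marks probes that can bind related transcripts.

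Tef, which binds the same D-boxes as Dbp, read 865.4 and 594 (germ-free) against 401.8 and 89.7 (conventionalized). The groups did not overlap, but the conventionalized duplicates lay 4.48-fold apart, more than the smallest gap of 1.48-fold between the groups. The difference of -1.71 ± 0.49 (SE) missed the threshold (limma adjusted p = 0.0927). Conventionalized replicate 2 held the lowest value, and without it the difference was -0.79 (limma adjusted p = 1), whereas without conventionalized replicate 1, with only the lowest array left in that group, it was -2.62 and called (limma adjusted p = 0.00151). Tef was also called among the brightest 25% of probe sets (limma adjusted p = 0.0332), and its limma adjusted p ran from 0.00151 to 1 over the alternatives. The other Tef probe sets lay under the filter. One read 176.6 and 18.3 against 9.8 and 206.1, so that its duplicates lay 9.65-fold and 21.0-fold apart, and the last read 30 and 66.5 against 74.3 and 32.2. Their differences were -0.04 and 0.08, and neither repeated the separation of the brightest one.

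Hlf, the PAR bZIP factor first known from a leukemia fusion, read 179.8 and 258 (germ-free) against 122 and 310.6 (conventionalized). The conventionalized arrays enclosed the germ-free ones, and the difference was -0.11 ± 0.62 (SE; limma adjusted p = 0.999). Its sign turned to 0.12 without germ-free replicate 2 and to 0.47 without conventionalized replicate 1. Its second probe set, under the filter, read 77.8 and 112 against 10.3 and 182.9 and overlapped in the same way. Each of the 3 PAR bZIP activators lay below 0 at its brightest probe set, beside 48.3% of all genes. Limma called 1 of the 3, beside 0.355% of all genes tested. The groups did not overlap in 2, beside the 16.1% of tested genes whose groups stood apart in the lower direction.

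Nfil3, the repressor that competes with DBP, TEF and HLF for D-boxes, has 1 probe set, which read 29.8 and 88.1 (germ-free) against 29.4 and 44.7 (conventionalized). The groups overlapped and the mean signal of 48 was under the filter. The difference was -0.33, or 0.15 without germ-free replicate 2, smaller in size than the gap of 0.96 between the germ-free duplicates. A level this dim cannot show a change of this size at the precision of these arrays.

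**Figure D2:**
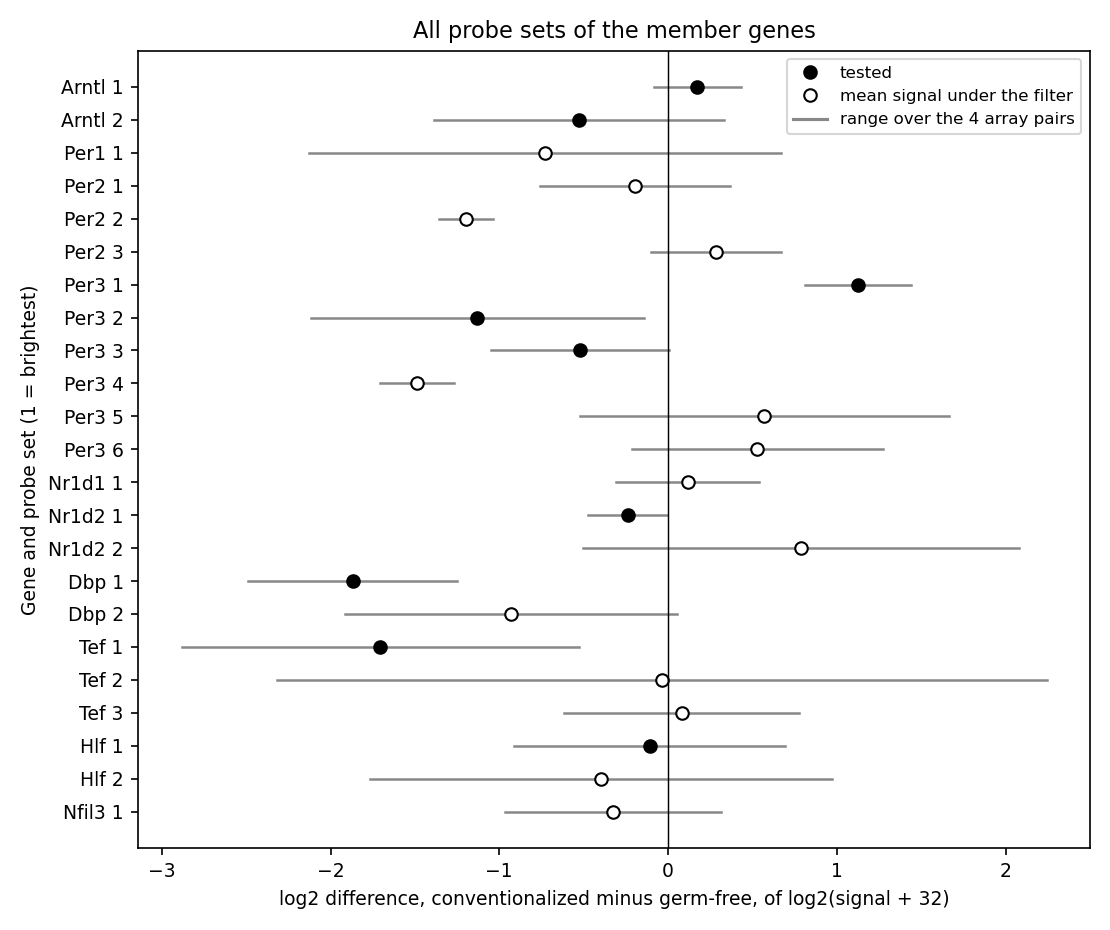
Log2 difference (conventionalized minus germ-free) at each of the 23 probe sets of the members, numbered from the brightest within a gene. Filled points were tested, open points lay under the signal filter, and lines span the 4 pairs of one conventionalized and one germ-free array. The lines of 7 of the 23 probe sets stay on 1 side of 0. Over all genes at their brightest probe set, the groups did not overlap in 31.6%. The probe sets of Per3 lie on both sides.

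The REV-ERB receptors, which tie the positive limb of the clock to Nfil3, showed no separation beyond the duplicates. Nr1d1, REV-ERB alpha, has 1 probe set and was near the low end of each array, at 16.2 and 23.9 (germ-free) against 13.2 and 38.1 (conventionalized). On the same arrays 20% of probe sets lay under 29.4, 17.2, 20.3 and 25.6, so that Nr1d1 was under that mark on the first germ-free and the first conventionalized array. The Nr1d1 difference was 0.12 and turned to -0.20 without conventionalized replicate 2. Nr1d2, REV-ERB beta, was well above the filter, at 435.1 and 599.5 (germ-free) against 422.9 and 432.8 (conventionalized). The lowest germ-free value exceeded the highest conventionalized value by 1.01-fold, so the groups touched without crossing. The Nr1d2 difference was -0.24 ± 0.47 (SE; limma adjusted p = 0.999), and -0.02 without germ-free replicate 2. Its second, dim probe set read 6.5 and 37 against 16.6 and 130.9 and differed by 0.79 the other way.

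The activator Arntl, which peaks opposite to Dbp in most tissues, read 197.6 and 288.1 (germ-free) against 269.7 and 277.9 (conventionalized) at its brightest probe set. The conventionalized values lay inside the germ-free range, with a difference of 0.17 ± 0.56 (SE; limma adjusted p = 0.999). Without germ-free replicate 1 it was -0.066. A second tested probe set read 237.9 and 112.1 against 71.4 and 149.7 and differed by -0.52 ± 0.86 with overlapping groups (limma adjusted p = 0.999), so the sign for Arntl depended on the probe set. Neither a rise nor a fall of Arntl was detectable at this error.

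The period genes, which repress ARNTL and CLOCK, gave no common direction. Per1, the member most quickly induced by hormones and cyclic AMP, has 1 probe set, which read 57.4 and 250.7 (germ-free) against 32.7 and 109.9 (conventionalized). Its duplicates lay 4.37-fold and 3.36-fold apart and the groups overlapped, with a mean signal of 112.7 just under the filter of 113.9. The Per1 difference was -0.73, and 0.10 without germ-free replicate 2. Per2, whose protein binds the cryptochromes, read 139.2 and 55.2 against 80.5 and 69.3 at its brightest probe set, which overlapped. At the next probe set it read 74.4 and 78.6 (germ-free) against 11.1 and 19.8 (conventionalized), at least 3.76-fold lower in each pair of arrays, though all 4 values were under the filter. The last Per2 probe set read 28.1 and 31.5 against 63.4 and 27.3. The 3 probe sets differed by -0.19, -1.20 and 0.28, none of them tested, and the first turned to 0.29 without germ-free replicate 1.

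Per3, a period gene whose promoter holds both D-boxes printed above, has 6 probe sets that disagreed. The brightest read 117.9 and 174.7 (germ-free) against 330.2 and 375.4 (conventionalized), so that both conventionalized arrays were higher, by 1.89-fold to 3.18-fold. Its difference of 1.13 ± 0.59 (SE) did not pass (limma adjusted p = 0.997). The next probe set read 257.9 and 209.8 against 186.7 and 34.9 and lay lower instead, by -1.13 ± 0.79 (limma adjusted p = 0.999). The remaining tested probe set read 211.5 and 169.9 against 85.7 and 170.5, with overlapping groups and a difference of -0.52. A probe set under the filter read 137.4 and 115.2 (germ-free) against 29.2 and 19.9 (conventionalized), a difference of -1.49 with at least 3.95-fold between the groups. The last 2, at 28.3 and 18.9 against 10 and 129.1 and at 34.4 and 16.9 against 25.2 and 86.2, overlapped. Of the 6 probe sets, 3 lay above and 3 below 0, and the median over the 3 tested was -0.52. A single direction for Per3 therefore could not be given from these arrays.

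A difference in phase could move the genes that peak with Dbp and those that peak opposite to it in opposed directions. The signs depend on the time of sampling, which the labels do not give, so the counts below do not test a phase difference. Of the 12 genes listed as peaking with Dbp, 9 lay below 0 at their brightest probe set, beside 48.3% over all genes. Of the 7 tested, 1 (Dbp) was called and 6 were not, where 0.355% of all genes tested were called. The median of the list was -0.19. Dbp defines the direction of both lists, and its own place in the first, which these counts and the median include, is no evidence for it. The other gene of this list apart from Dbp and Tef that lay far below 0 was Usp2, a rhythmic deubiquitinase. It read 401.2 and 449.2 (germ-free) against 347.7 and 38 (conventionalized). The Usp2 difference of -1.49 ± 0.58 (SE; limma adjusted p = 0.565) drew on conventionalized replicate 2, and it was called only without conventionalized replicate 1. Its second probe set read 191 and 180.3 against 99.4 and 109.4, a difference of -0.67, with the groups apart in the same direction. Wee1, a cell cycle kinase under E-box control, differed by 0.15. Its second tested probe set read 20.1 and 95.9 against 102 and 359.1, with the groups apart upward. The difference there was 1.49 ± 1.07 (SE; limma adjusted p = 0.999). Ciart, a repressor of the clock activators, differed by -0.04 at signals of 35.3 to 63.2. Without germ-free replicate 2, 6 of the 12 lay below 0 and the median was 0.03.

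Of the 5 genes listed as peaking opposite to Dbp, 2 lay above 0 and 3 below, and the median was -0.04. Of the 4 tested, limma called 0, and 0 had an unadjusted p under 0.05. Cry1, a cryptochrome repressor that peaks late, was the one whose groups stood apart upward, with 85.5 and 20.9 (germ-free) against 160.3 and 290.3 (conventionalized). Its difference of 1.66 ± 1.03 (SE) did not pass (limma adjusted p = 0.999), and the germ-free duplicates lay 4.09-fold apart. Clock, the partner of ARNTL, read 460.1 and 598.7 against 362.5 and 438.2 and lay lower, by -0.37 ± 0.47 (limma adjusted p = 0.999). Npas2, the other partner, read 215.1 and 259.2 against 192.3 and 272.2, a difference of -0.04. Arntl and Nfil3, the members of this list, are given above. The median of the list ran from -0.26 without conventionalized replicate 2 to 0.18 without conventionalized replicate 1. With 1 pool per group and no clock time, a phase difference, a difference in level at one phase and the fluidics station cannot be told apart.

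**Figure D3:**
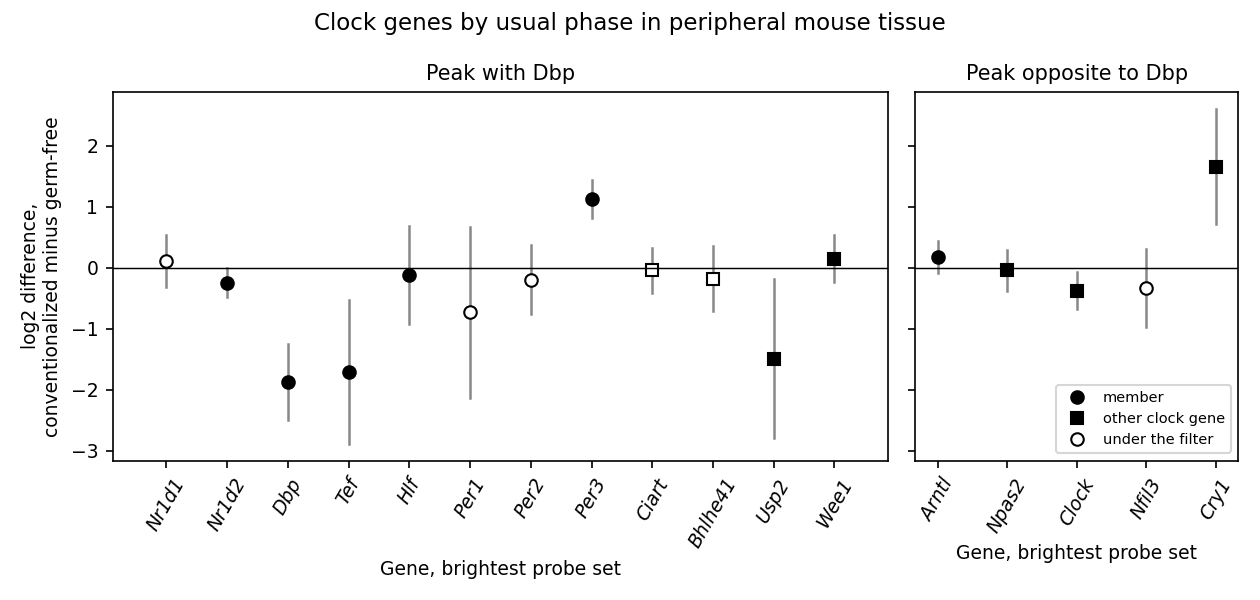
Log2 difference (conventionalized minus germ-free) of the genes that usually peak with Dbp and of those that usually peak opposite to it, at the brightest probe set. Circles are members and squares other clock genes, open symbols lay under the signal filter, and lines span the 4 array pairs. In the first panel 9 of 12 points lie below 0, Dbp itself among them, and in the second 2 of 5 lie above it.

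The list of clock genes that are no members overlaps the lists just described: Clock, Npas2, Cry1, Bhlhe41, Ciart, Usp2 and Wee1 stand in both. Of 17 listed, 15 were measured and 12 tested, and limma called 0 of them, with 1 (Usp2 again) at an unadjusted p under 0.05. Of the 15, 7 lay above 0 and 8 below, with a median of -0.04. Single arrays moved this split: 11 lay above 0 without conventionalized replicate 1 (median 0.10, Usp2 called) and 5 without conventionalized replicate 2 (median -0.27). The brightest were Csnk1d, Wee1, Clock and Usp2. Csnk1d, a casein kinase that marks PER proteins for turnover, read 6279.7 and 12184.2 against 12334.9 and 7967.6 and differed by 0.18 ± 0.56. Csnk1e, its relative, read 123.2 and 106.4 against 247.7 and 276.7, a difference of 1.00 ± 0.69 with the groups apart (limma adjusted p = 0.999), while a second tested probe set differed by -0.12. Cry2 read 167.7 and 112.5 against 68.7 and 138.6 and overlapped.

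Listed output genes of the PAR bZIP factors lay mostly lower beside Dbp and Tef. Of 7 listed, 6 were measured, 5 lay below 0 and the groups stood apart downward in 4, beside 48.3% and 15.4% over all genes. Of the 5 tested, limma called 0 (2 at an unadjusted p under 0.05), and the median was -0.75. Abcb1a, a drug efflux pump, read 1450.7 and 2966.7 (germ-free) against 769.3 and 1208.6 (conventionalized), a difference of -1.08 ± 0.42 (limma adjusted p = 0.551). Its second probe set, at 1012.1 and 1694.1 against 571.3 and 630.4, differed by -1.09. Alas1, the first enzyme of heme synthesis, read 561.3 and 568.7 against 326.1 and 238.8, a difference of -0.94 ± 0.49 (limma adjusted p = 0.987). Slc15a1, the intestinal peptide transporter, read 1315.4 and 1614.6 against 576.4 and 1128.8, a difference of -0.83 ± 0.42 (limma adjusted p = 0.968). Cyp2b10, a drug-metabolizing cytochrome, read 2990.4 and 2673.3 against 1622.9 and 1905.8, a difference of -0.68 ± 0.43. Pdxk, which activates vitamin B6, overlapped, at 1798 and 1932 against 1575.1 and 1830.2. The median stayed below 0 in all 15 alternatives, from -0.85 to -0.46. Those that change only the filter, the variance model or the block leave it at -0.75 by construction.

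Absorptive enterocytes also express several of these genes. Of 11 enterocyte markers measured, 9 lay below 0 and the median was -0.54. Limma called 1 of them (Apoc3) lower, beside 0.355% of all genes tested called in either direction. For these and the marker counts that follow, the share of all genes below 0 was 48.3%. The summed signal of the enterocyte markers was 97130 and 178053 (germ-free) against 112345 and 261745 (conventionalized). Fabp2, among the 2 markers above 0, gave 20981.4 and 45251.9 against 51528 and 142558.1 of it. The dimmest, Anpep, had a mean signal of 371.4. The part of enterocyte RNA in the values of Dbp, Tef and the output genes was not tested. Smooth muscle and fibroblast markers lay below 0 in 4 of 7, with summed signals of 5853 and 5013 against 3174 and 4449. All 3 endothelial markers lay below 0, with sums of 436 and 295 against 196 and 87 and with Pecam1 at a mean of 16.1. Leukocyte markers lay above 0 in 7 of 8, with sums of 1213 and 839 against 1306 and 1897, goblet markers in 4 of 6 and enteroendocrine markers in 2 of 6. The goblet sums were 44284 and 82796 against 93091 and 180291, and the enteroendocrine sums 3924 and 5597 against 3267 and 3251. Fewer cells of a type and less RNA per cell cannot be told apart in such captures.

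**Figure D4:**
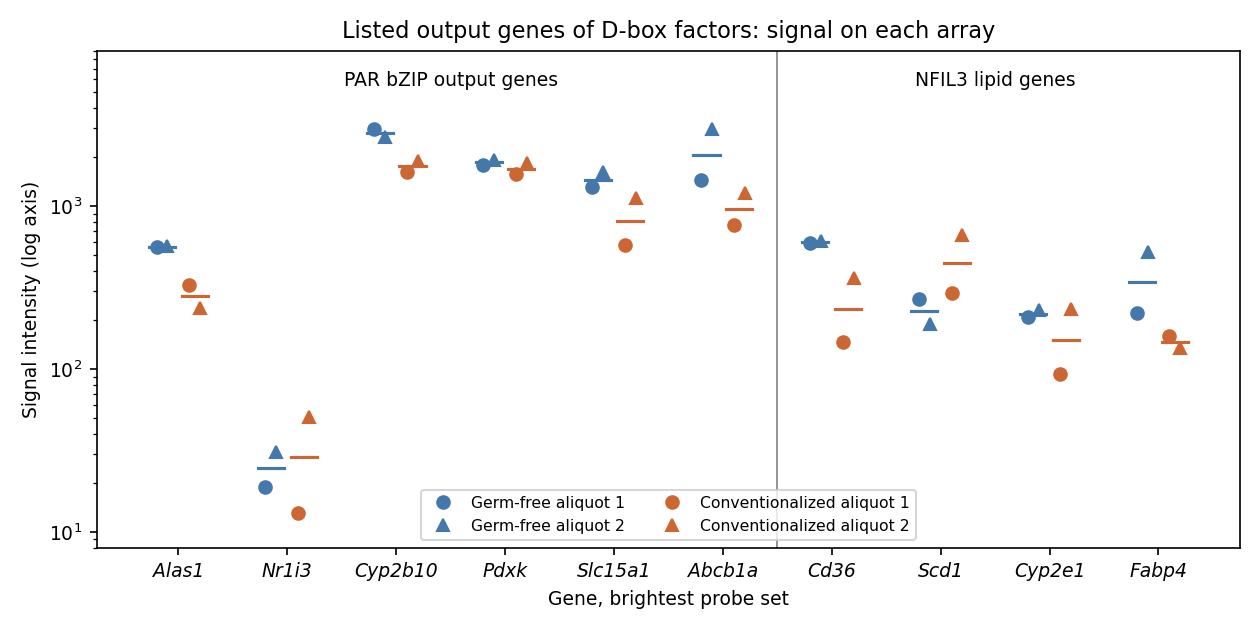
Signal intensity (log axis) of the measured output genes of the PAR bZIP factors (6 genes, left) and of the NFIL3 lipid genes (4 genes, right) on each array, at the brightest probe set. Symbols mark the aliquot, colours the group and bars the group mean on the log2(signal + 32) scale. Alas1, Cyp2b10, Slc15a1, Abcb1a, Cd36 and Fabp4 lie lower in both conventionalized arrays, and none of the 10 genes was called.

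The lipid genes known to depend on NFIL3 in enterocytes were measured in all 4 cases and limma called 0 of 4 (1 at an unadjusted p under 0.05), with 3 below 0 and a median of -0.77. Without conventionalized replicate 1, 2 of the 4 lay below 0 and the median was -0.30, and without germ-free replicate 2 it was -0.45. Cd36, a fatty acid transporter, read 591.3 and 609.1 (germ-free) against 146.5 and 360.6 (conventionalized), a difference of -1.26 ± 0.49 (limma adjusted p = 0.587). A second Cd36 probe set differed by -2.00 and the remaining one by 0.60. Fabp4, a fatty acid binding protein, read 221.4 and 521.5 against 159.1 and 134.3, a difference of -1.07, while its second tested probe set differed by 0.37. Scd1, a fatty acid desaturase, lay the other way, at 269 and 189.7 against 294 and 666.1, a difference of 0.88 ± 0.52. Cyp2e1 overlapped, at 209.1 and 230.2 against 93.4 and 234.5.

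Lists of genes linked to the REV-ERB step or to the glucocorticoid response gave no called member either. In the IL-22 and STAT3 list, through which microbial signals are known to reach Nr1d1 in epithelium, 3 of 4 lay above 0 and limma called 0 of 3 tested (0 at an unadjusted p under 0.05); with quantile normalization or median centring 2 of 4 lay above 0. Without conventionalized replicate 1 only 1 of 4 lay above 0, and the median of the list turned from 0.38 to -0.04. Socs3, a feedback target of STAT3, read 1234.3 and 869.7 (germ-free) against 1683 and 1714.2 (conventionalized), a difference of 0.70 ± 0.42 (limma adjusted p = 0.999). Its second tested probe set differed by 0.64, and the groups stood apart upward at both. Stat3 itself differed by 0.06 and Il10rb, a subunit of the IL-22 receptor, by -0.08. Of the REV-ERB corepressors, Hdac3, the histone deacetylase that REV-ERB recruits, read 996.9 and 605.8 against 616.3 and 409.5 and differed by -0.60 with overlapping groups, and Tbl1xr1 differed by 0.18. The list of 5 glucocorticoid targets, a class to which Per1 also belongs, includes the receptor gene Nr3c1. At its brightest probe set Nr3c1 differed by -0.49 ± 0.43 with the groups apart downward (limma adjusted p = 0.999). Of the 5, 3 lay above 0 (2 when germ-free replicate 1 was left out, and under quantile normalization or median centring). Limma called 0 of them, with 0 at an unadjusted p under 0.05. Fkbp5, a chaperone induced by glucocorticoids, read 600.6 and 581.1 against 1043.4 and 890.3, a difference of 0.68 ± 0.43 with the groups apart. Tsc22d3 differed by 0.32 and by -1.25 at its first and second probe sets, and Klf9 by 0.02.

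**Figure D5:**
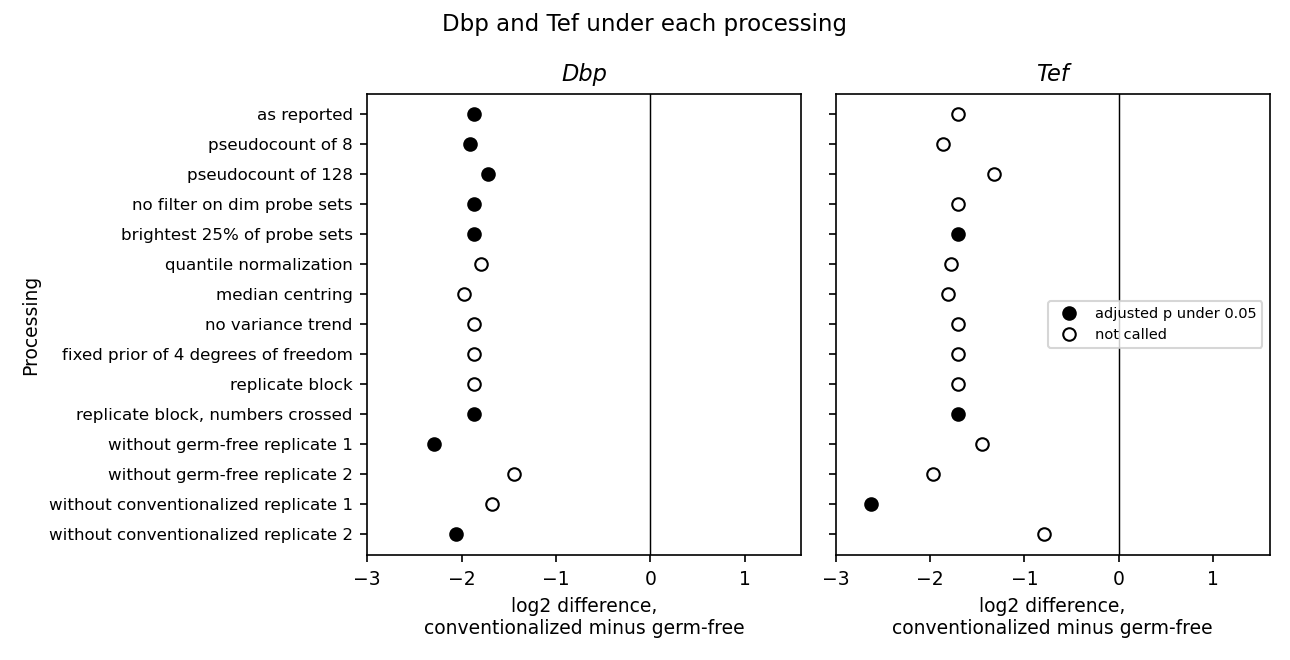
Log2 difference of Dbp and of Tef at the brightest probe set under the reported processing and each alternative that refits the model. Filled points have a limma adjusted p under 0.05. Settings that change only the filter, the variance model or the block repeat the reported difference by construction. All points lie below 0; Dbp is called in the reported fit and 7 alternatives, and Tef in 3 alternatives.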

How the data were processed

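Expression was measured on 4 arrays, 2 per group, as duplicate amplifications of 1 pool of 3 mice. The deposited table held the authors' signal intensity per probe set, linear, with a mean of 250 on each array after trimming 2% from each end; its software is not given in the sources used here. Deposited scanner and fluidics settings (another kind of value) were read for batches: 1 chip lot, 1 scanner, 1 hybridization day, 1 scan day and 2 fluidics stations. Intensities were turned into log2(intensity + 32), 64 control probe sets and those with a mean of 113.9 or less were left out, and 22491 probe sets were fitted with limma 3.58.1 in R 4.3.3 (lmFit, eBayes with a variance trend, 2 residual degrees of freedom) with Benjamini-Hochberg adjustment. A permutation of 2 against 2 arrays could not reach the threshold.

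Genes were named from the platform annotation: 34958 probe sets named 1 gene, 932 several and 9211 none there; 34754 matched by identifier to the GRCm38.p6 gene table, and no symbol changed. The brightest probe set stands first for a gene. All members were named, and of other lists the called genes and up to 4 of the brightest; Cry2, Csnk1e, Ciart, Alas1, the dimmest markers and second probe sets were chosen after their values were seen. Members and lists were chosen with earlier results of these data known. Same-numbered aliquots deviated with a correlation of -0.13. Some genes of the lists are not reported here.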

Additional observations from a re-analysis of the deposited data

How the results depend on the processing

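Of all probe sets tested, limma called 75, 27 higher and 48 lower in conventionalized cells. The count was 33 with quantile normalization, 21 with median centring (3 higher, 18 lower), 30 with the replicate block and 0 both without the variance trend and with the prior fixed at 4 degrees of freedom, where 975 and 464 had an unadjusted p under 0.05. Leaving out 1 array gave 41 (without germ-free replicate 2) to 213 calls (without conventionalized replicate 1), with 46 and 47 for the other arrays. Of the members, 1 was called as reported, 2 (Dbp and Tef) among the brightest 25% of probe sets and 0 with quantile normalization, with median centring, without the trend, with the fixed prior and with the replicate block; leaving out 1 array gave 0 (without germ-free replicate 2) to 1, which was Tef without conventionalized replicate 1 and Dbp for the other arrays. The members' median of -0.22 ran from -0.40 to 0.11 with 1 array left out. Same-numbered aliquots deviated apart (correlation -0.13), and a block on the crossed pairing, chosen after seeing the data, called 228 probe sets and 2 members. Nothing in the labels pairs aliquots. With 1 array left out Arntl ran from -0.066 (without germ-free replicate 1) to 0.41 and Hlf from -0.69 to 0.47. Among tested members signs turned for Arntl (also -0.18 over its tested probe sets), Per3 (-0.52 over its tested probe sets) and Hlf (also 0.12 without germ-free replicate 2). Among members under the filter they turned with 1 array left out for Per1 (0.10), Per2 (0.29), Nr1d1 (-0.20) and Nfil3 (0.15). Median centring moved the median of all tested probe sets from 0.00 to -0.10. The cause of these changes was not tested. Members under the signal filter could not show changes of the size of their duplicates' gaps.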
